A study of Mus musculus with 8 samples.

Results

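The transcription factors Otx2, Pou3f1, Zic2, Zic5, Sox4, Foxd3 and Sall2, which are associated with the primed or formative epiblast, were followed in 8 mouse embryonic stem cell lines. The 7 genes were taken by name, aliases included, and the platform annotation gives each of them 1 of the 25697 probes of an Illumina bead array. The lines fall into 2 groups. The tNT group holds 6 lines from tetraploid nuclear transfer, all labelled tetraploid, with lines 1 to 6 at passage 17, 19, 25, 29, 18 and 25. The NT group holds 2 lines from nuclear transfer, labelled not tetraploid, for which the labels give no passage. Every line is described as mixed strain and as doubly sedimented, and the series title speaks of 2 somatic nuclei placed in the same egg cytoplasm. Each line is 1 array, so the number of arrays, 6 against 2, limits the precision, and the tests weigh differences against the spread from line to line. Values are log2 intensities after background correction and quantile normalization, and a probe is called above background at a detection p under 0.01. Between 10449 and 10969 probes were above background on an array. The stem cell markers Pou5f1, Sox2, Nanog and Zfp42 were above background on all 8 arrays.

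Embryonic stem cells are kept in a naive state, like that of the epiblast before implantation. On leaving it they pass through a formative into a primed state, in which naive factors such as Klf4 are lowered and factors such as Otx2 and Pou3f1 are raised. Otx2, a homeodomain protein, and Pou3f1, also called Oct6, a POU domain protein, act at this step, and Otx2 redirects Pou5f1 to new enhancers. Foxd3, a forkhead protein, is needed to keep the epiblast and later acts in the neural crest. Zic2 and Zic5 are zinc finger proteins of the neural plate, Sox4 is an HMG box protein of many progenitor cells, and Sall2 is a zinc finger protein of the spalt family.

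Of the 7 factors, Otx2, Pou3f1 and Zic2 were above background on all 8 arrays and Sall2 on 4. Zic5, Sox4 and Foxd3 were above background on none. A gene entered the tests if its probe was above background on at least 2 arrays, which left 4 of the 7 factors among 8816 genes and unnamed probes. Otx2 and Zic2 had group means within 0.26 and 0.02 log2 units of each other. Pou3f1 and Sall2 were lower in tNT lines on average, by 0.88 and 0.91 log2 units, and neither passed. After adjustment over all genes tested, 0 of the 4 passed 0.05 in limma's moderated test, beside 1.86% of all genes tested. At an unadjusted p under 0.05 there were 2 of the 4, Pou3f1 and Sall2, beside 18% of all. The median difference of the 4 was -0.57, and that of all 8816 was 0.01. The tNT and NT values of 1 of the 4, Sall2, did not overlap, beside 21.7% of all genes tested. In bulk RNA of this kind, fewer cells with a transcript and less transcript per cell cannot be told apart.

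**Figure D1:**
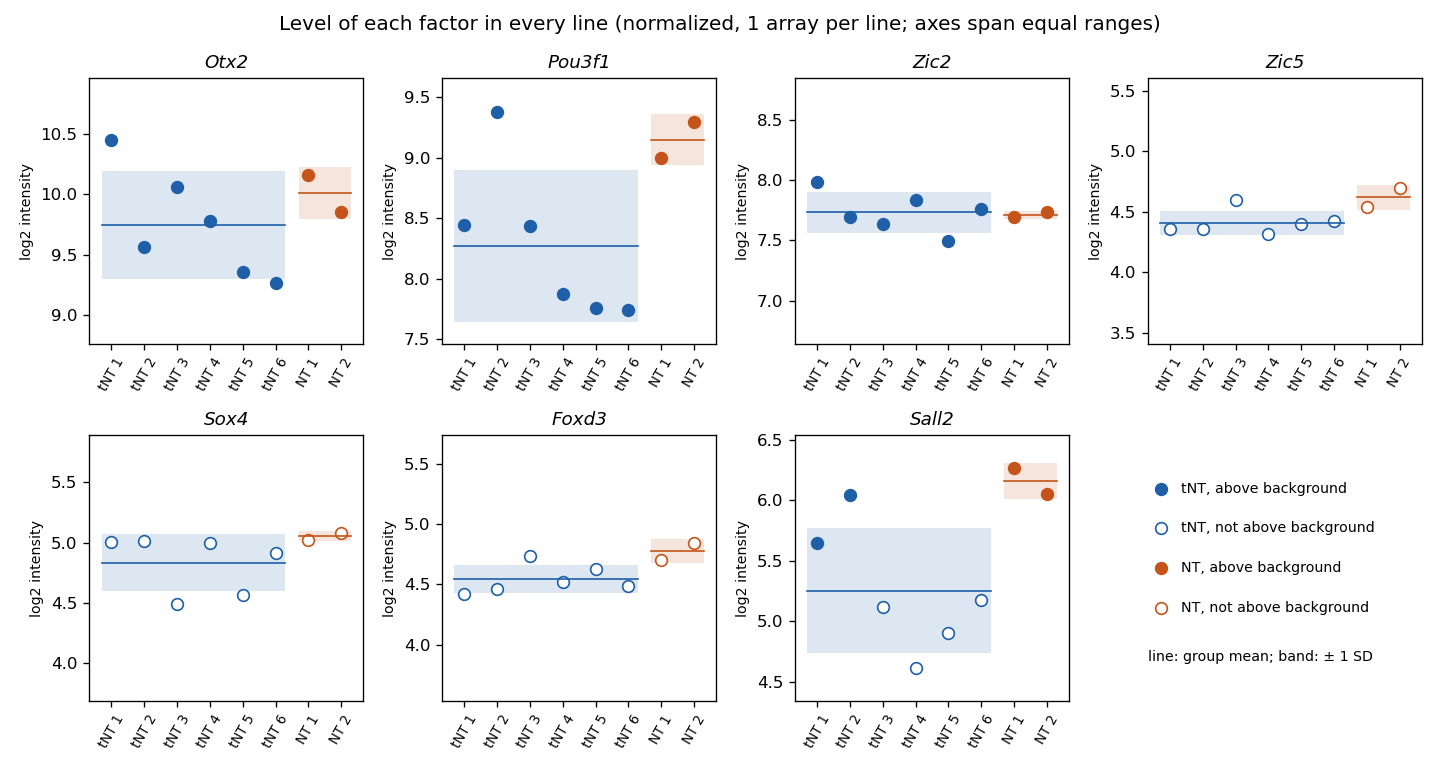
The plot of levels by line gives the normalized log2 intensity (vertical axis) of each of the 7 factors in the 6 tNT and 2 NT lines (horizontal axis), with filled points above background, open points not above background, and group means with bands of ± 1 SD. Pou3f1 and Sall2 of tNT line 2 lie beside the NT lines at 9.38 and 6.04, and all points of Zic5, Sox4 and Foxd3 are open.

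The homeodomain factor Otx2 measured 10.45, 9.56, 10.06, 9.78, 9.36 and 9.27 on the log2 scale in tNT lines 1 to 6. It had 10.16 and 9.86 in NT lines 1 and 2. The groups overlapped, with tNT line 1 above both NT lines, line 3 between them and the other 4 below. The tNT mean was 9.75 ± 0.45 (SD, n = 6) and the NT mean 10.01 ± 0.22 (SD, n = 2), a tNT minus NT difference of -0.26 with an SE of 0.29 and a 95% interval of -0.91 to 0.38 (limma, adjusted p = 0.689). On the linear scale the NT mean was 1.20-fold that of the tNT lines, with an interval of 0.767 to 1.88. Ordered by level, no neighbouring lines were farther apart than the 0.30 between the NT lines. From the highest to the lowest tNT line, however, Otx2 spanned 1.18 log2 units or 2.27-fold. RefSeq (build GRCm38.p6) gives Otx2 4 start sites on the minus strand of chromosome 14. Windows of 300 bases, 250 before and 50 after each start, were searched on both strands for the OTX core TAATCC and the octamer ATGCAAAT, to which POU proteins bind. The third window from the 5′ end, on the minus strand of GRCm38.p6, was the 1 member window of 9 with an OTX core, and it is shown for that match, in capitals on the opposite strand (GGATTA).
Otx2 promoter window at chr14:48665060-48665359: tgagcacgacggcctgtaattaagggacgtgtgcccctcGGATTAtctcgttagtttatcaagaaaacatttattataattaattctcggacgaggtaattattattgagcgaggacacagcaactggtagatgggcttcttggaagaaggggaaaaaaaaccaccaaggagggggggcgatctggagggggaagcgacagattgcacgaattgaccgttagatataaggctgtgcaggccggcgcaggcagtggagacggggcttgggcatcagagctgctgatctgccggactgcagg
The OTX core is in 7.06% of all 32851 windows. The octamer is in 1.74% of all and in 0 of the 9 member windows, which come from 5 of the 7 genes. The table holds no window for Pou3f1 or Zic2, and a match describes letters only.

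The POU domain factor Pou3f1 varied most among the tNT lines. It measured 8.45, 9.38, 8.44, 7.87, 7.76 and 7.74 on the log2 scale in tNT lines 1 to 6. It had 9.00 and 9.30 in NT lines 1 and 2. Line 2 was the highest of all 8 arrays, and the other 5 tNT lines lay below both NT lines, so the groups overlapped through line 2 alone. The tNT mean was 8.27 ± 0.63 (SD, n = 6) and the NT mean 9.15 ± 0.21 (SD, n = 2), which makes the NT mean 1.84-fold that of tNT lines (interval 1.01 to 3.35). The difference of -0.88 had an SE of 0.39 and did not pass (limma, adjusted p = 0.273). Without tNT line 2 it was -1.10 and passed (limma, adjusted p = 0.0314), beside 6.60% of all genes tested. With array weights, which give less weight to arrays that deviate more, it was -1.11 and also passed (adjusted p = 0.0142), beside 15.7% of all. Those were the only 2 of 20 alternatives in which Pou3f1 passed. Over the 20 its difference lay between -1.13 and -0.24.

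In the order of levels, Pou3f1 fell into 3 steps. Line 2 and the NT lines formed the upper step, lines 1 and 3 the middle one and lines 4, 5 and 6 the lower one. The gaps between the steps were 0.55 and 0.57 log2 units, above the 0.30 that separated the NT lines, and all other neighbours were no farther apart than that. Such gaps were not particular to Pou3f1, since Sall2 and Zic2 each had 4 above the difference of their own NT values. From line 2 to line 6 Pou3f1 spanned 1.64 log2 units or 3.11-fold, against 1.23-fold between the NT lines. A range over 6 lines was above the difference of the NT pair in 95.9% of all genes tested, and in all 4 factors tested. The SD of Pou3f1 over the tNT lines was larger than that of 98.0% of the genes tested. The SD of Otx2 stood at percentile 92.0, that of Sall2 at 95.2 and that of Zic2 at 31.8, beside a median SD of 0.22 over all genes.

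The zinc finger factor Zic2 was the steadiest of the 4. It measured 7.99, 7.69, 7.63, 7.83, 7.49 and 7.76 on the log2 scale in tNT lines 1 to 6. It had 7.69 and 7.73 in NT lines 1 and 2. The NT values lay inside the range of the tNT lines, of which 3 were above both NT lines, 2 below both and 1 between. The tNT mean was 7.73 ± 0.17 (SD, n = 6) and the NT mean 7.71 ± 0.03 (SD, n = 2). The difference was 0.02 with an interval of -0.29 to 0.34 (limma, adjusted p = 0.953), that is, an NT mean between 0.792-fold and 1.22-fold that of tNT lines. Line 1 was the highest and line 5 the lowest, 1.41-fold apart.

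Zic5 lies next to Zic2 on chromosome 14, with 1 entry, 2610035F20Rik, between them in the RefSeq gene order. Its probe had log2 intensities of 4.31 to 4.60 in tNT lines and 4.54 and 4.69 in NT lines, and its lowest detection p was 0.185. So the probe of Zic2 was above background on every array and that of its neighbour on none. A probe's level cannot be set against that of another probe, and the probe of Zic5 gives only a bound here. The SOXC factor Sox4 had log2 intensities of 4.50 to 5.01 in tNT lines and 5.02 and 5.08 in NT lines. All 6 tNT values lay below both NT values, by a margin of 0.01, and 21.7% of all genes tested had groups that did not overlap. Lines 3 and 5 were the lowest at 4.50 and 4.57. None of the 8 values was above background, so no direction is read from them. Its detection p was under 0.05 on 3 arrays, with 0.0238 as the lowest. The forkhead factor Foxd3 had 4.42 to 4.73 in tNT lines and 4.71 and 4.84 in NT lines, with a lowest detection p of 0.0815. With both groups not above background, no difference or fold is given for Zic5, Sox4 and Foxd3.

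Of the 4 factors tested, the spalt family factor Sall2 was the 1 whose groups did not overlap, by a margin of 0.01. It measured 5.65, 6.04, 5.12, 4.61, 4.90 and 5.17 on the log2 scale in tNT lines 1 to 6. It had 6.26 and 6.05 in NT lines 1 and 2. Among tNT lines only 1 and 2 were above background, and line 2 was level with NT line 2. The tNT mean was 5.25 ± 0.52 (SD, n = 6) and the NT mean 6.16 ± 0.15 (SD, n = 2), which makes the NT mean 1.88-fold that of tNT lines (interval 1.14 to 3.10). The difference of -0.91 had an SE of 0.32 and did not pass (limma, adjusted p = 0.174). It passed without tNT line 2 (-1.07, limma, adjusted p = 0.0375, beside 6.60% of all genes tested) and with array weights (-1.03, adjusted p = 0.0128, beside 15.7%). It also passed with tNT lines of passage 25 to 29 only (-1.19, adjusted p = 0.0407, beside 2.42% of all genes tested). Those were the only 3 of 19 alternatives in which the difference passed. With tNT lines of passage 17 to 19 only it was -0.63 and did not pass (limma, adjusted p = 0.462), beside 0.306% of all. Pou3f1 passed in neither range, at -1.13 (limma, adjusted p = 0.0604) with the later lines and -0.62 (adjusted p = 0.592) with the earlier ones. Most tNT values of Sall2 were near background, and its difference was -1.48 in the authors' processed values and -0.34 with no background correction. With background correction kept and the 75th percentile in place of quantile normalization it was -0.91. The cause of the spread over these settings was not tested.

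RefSeq gives Sall2 2 start sites on the minus strand of chromosome 14, and their windows (GRCm38.p6) are shown because they differ in CpG content, with each CpG in capitals.
Sall2 promoter window at chr14:52328621-52328920: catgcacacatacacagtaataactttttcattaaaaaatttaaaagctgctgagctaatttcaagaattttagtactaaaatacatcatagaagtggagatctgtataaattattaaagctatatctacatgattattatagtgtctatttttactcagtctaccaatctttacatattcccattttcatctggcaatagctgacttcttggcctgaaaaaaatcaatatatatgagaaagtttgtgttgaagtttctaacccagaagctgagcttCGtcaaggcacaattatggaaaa
Sall2 promoter window at chr14:52316274-52316573: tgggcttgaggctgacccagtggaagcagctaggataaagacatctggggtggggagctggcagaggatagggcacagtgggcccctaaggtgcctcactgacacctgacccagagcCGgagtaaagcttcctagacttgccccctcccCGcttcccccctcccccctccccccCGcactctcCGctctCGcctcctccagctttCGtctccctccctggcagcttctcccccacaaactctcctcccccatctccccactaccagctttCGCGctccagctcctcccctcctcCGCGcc
The first window holds 1 CpG and the second 10, against a median of 7 over all windows. The windows of the other members hold 6 to 25, from Otx2 with the fewest to Foxd3 with the most. The array does not say from which start the Sall2 transcript came.

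**Figure D2:**
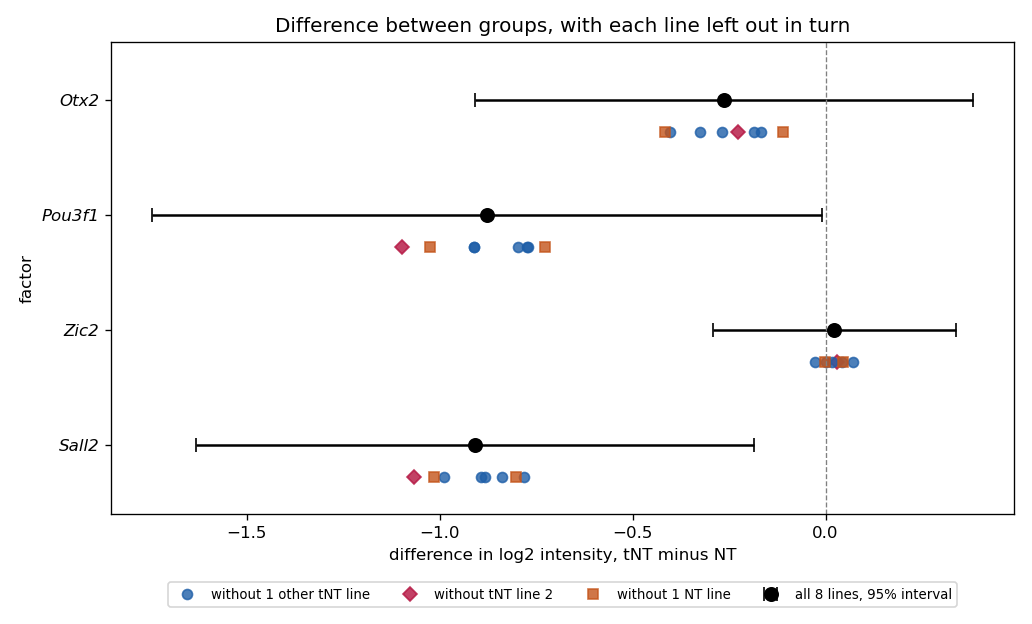
The plot of differences gives tNT minus NT in log2 intensity (horizontal axis) for the 4 factors tested, with the value over all 8 lines and its 95% interval in black and, under it, the values with each line left out. The red diamonds without tNT line 2 lie at -1.10 for Pou3f1 and -1.07 for Sall2, the lowest of the values with a line left out, while those of Otx2 and Zic2 lie among the other points.

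Line 2 carried the highest tNT values of both Pou3f1 and Sall2, but not of Otx2 or Zic2. Line 2 also stood apart from the other tNT lines in some gene lists, but not all. The summed linear intensity of a list is led by its brightest genes. That of the 4 factors themselves was 1694 in line 2, 2053 in line 1 and 1646 in line 3. Nor did line 2 stand apart in paralogs of the factors (4976, line 1 at 5020) or neural crest markers (470, line 5 at 475). The same held for mesoderm and endoderm markers (196, line 6 at 197). The 17 other formative and primed genes tested summed to 25276 in line 2, 17211 to 20669 in the other tNT lines, and 27636 and 27480 in NT lines 1 and 2. The 13 core and naive factors tested summed to 40833 in line 2, at least 47247 in each of the other tNT lines, and 40217 and 41042 in the NT lines. In both lists line 2 was nearer to the NT lines than to any other tNT line. The summed linear intensity of the 8 fibroblast markers measured, of 12 with a probe, was 2973 in line 2, 1504 to 2178 in the other tNT lines, and 1753 and 1544 in NT lines 1 and 2, with Col1a2, Col3a1, Postn and S100a4 not above background on enough arrays to be tested. That of the 3 neuroectoderm markers measured (Nes, Map2 and Gbx2), of 14 with a probe, was 1834 in line 2, 732 to 924 in the other tNT lines, and 963 and 1001 in the NT lines. That sum was led by Gbx2, at 10.65 on the log2 scale in line 2 and 9.11 to 9.62 in the other tNT lines, whereas Map2 was lowest of all 8 arrays in line 2, at 5.69. The defining neural markers Sox1, Pax6, Neurog2, Olig2, Tubb3 and Dcx did not reach background on enough arrays. The part of such cells in the values of Pou3f1 and Sall2 was not tested.

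The 4 factors were also compared in pairs over the 6 tNT lines, a comparison chosen after their values were seen. By Pearson r, Pou3f1 and Sall2 had the closest relation of the 6 pairs, at 0.86 (exact permutation p = 0.0319, adjusted p = 0.192 over the 6 pairs). By Spearman rho they did not, with 0.60 (exact permutation p = 0.242, adjusted p = 0.725). Otx2 and Pou3f1 had a higher rho of 0.66 (exact permutation p = 0.175, adjusted p = 0.725). Without lines 2 and 6, the lines farthest from the median of Pou3f1, the r of Pou3f1 and Sall2 was 0.79 over 4 lines. The other 5 pairs had r between 0.10 and 0.62, with adjusted exact permutation p between 0.550 and 0.833. No pair passed after adjustment.

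Passage was the other comparison among the tNT lines. Of the 4 factors 0 had a slope past the threshold by limma, and 0.00% of all genes tested did, with a smallest adjusted p of 0.994. At an unadjusted p under 0.05 there were 0 of the 4 factors, beside 4.44% of all. Sall2 had the steepest slope, -0.07 log2 units per passage (interval -0.14 to 0.01, limma, adjusted p = 0.994), from 5.65, 4.90 and 6.04 at passage 17, 18 and 19 to 4.61 at passage 29. Pou3f1 had a slope of -0.05 (interval -0.16 to 0.05), Otx2 of -0.01 (-0.10 to 0.07) and Zic2 of 0.00248 (-0.04 to 0.05). Over the 12 passages spanned, the interval of Zic2 allows a change between -0.49 and 0.55. Taken as groups, tNT lines of passage 25 to 29 differed from those of passage 17 to 19 by -0.56 for Sall2 and -0.51 for Pou3f1 (limma, adjusted p = 0.991 each). The Sall2 difference from NT lines that passed with the later lines is therefore not shown to differ from that of the earlier lines.

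**Figure D3:**
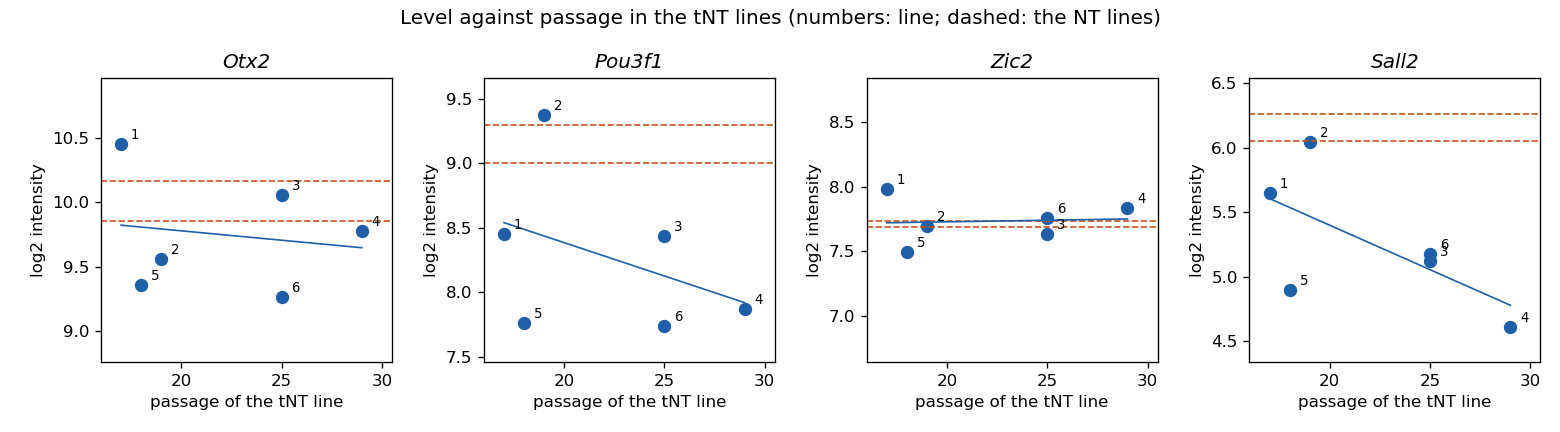
The plot of level against passage gives the log2 intensity (vertical axis) of the 4 factors tested in the 6 tNT lines by passage (horizontal axis), with the fitted slope and the NT lines dashed. Line 5 at passage 18 is low in Pou3f1 and Sall2 at 7.76 and 4.90, beside lines 1 and 2 of nearly the same passage.

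The genes with the most alike pattern over the 8 arrays were taken by the smallest root mean square difference of log2 values, each gene centred on its mean. For Pou3f1 these were Mest, an imprinted gene for a hydrolase-like protein (0.163), Timm21, of the mitochondrial import machinery (0.188), and Hbb-bh1, an embryonic globin (0.209), where Pou3f1 itself deviates by 0.631. For Sall2, which deviates by 0.570, they were Marveld3, a tight junction protein (0.139), Folr1, a folate receptor (0.156), and Arap3 (0.165). For Otx2, which deviates by 0.381, they were Prss35 (0.137), Ccl27a, a chemokine (0.157), and Igdcc4 (0.160). For Zic2, which deviates by 0.135, they were Adal (0.0478), Ap3s2 (0.0622) and the pluripotency factor Sox2 (0.0651). None of these 12 genes passed between tNT and NT lines, beside 1.86% of all genes tested. They were chosen by likeness to 4 factors that did not pass, so this is no separate result. Hbb-bh1 and Marveld3 were above background on 3 arrays each, Prss35 on 6 and Arap3 on 7, and the others on all 8. Of the 4 factors, Otx2, Zic2 and Sall2 lie on chromosome 14.

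**Figure D4:**
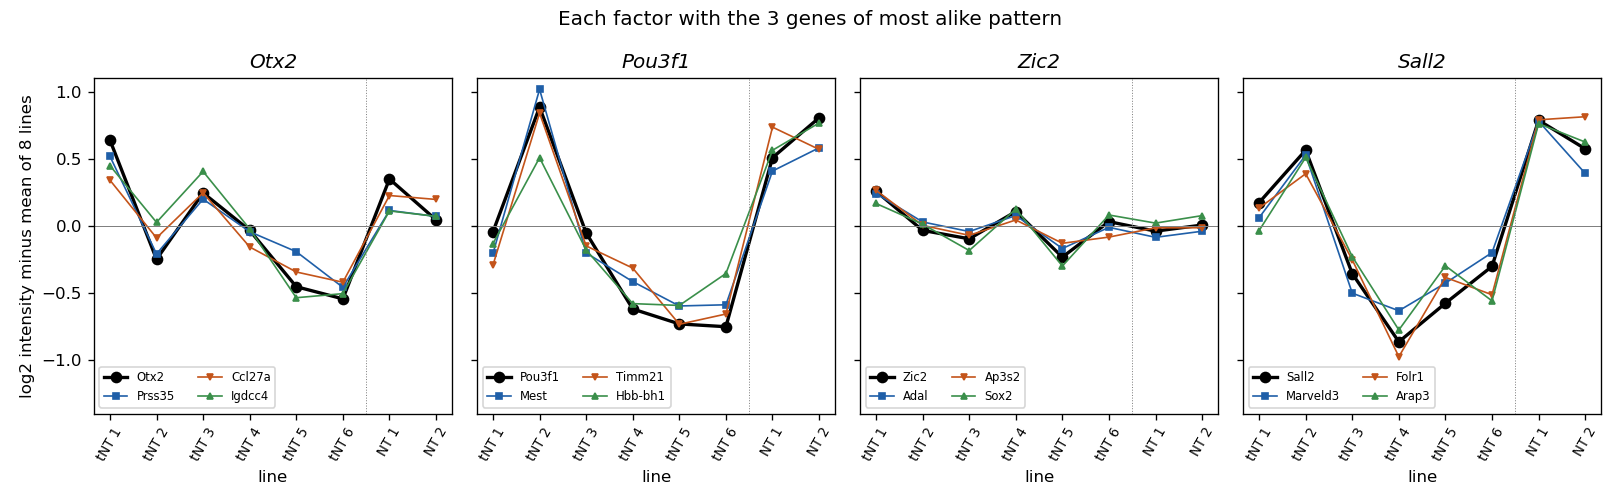
The plot of alike patterns gives the log2 intensity minus the mean of the 8 lines (vertical axis) by line (horizontal axis) for each factor tested, in black, and its 3 closest genes, in colour. Pou3f1 and its 3 genes have their highest tNT value in line 2, where Pou3f1 stands at 0.89, while Zic2 and its genes stay within 0.30 of their means.

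Other members of the same gene families were measured in part. Of 14 paralogs with a probe, 5 entered the tests and 0 passed. Sall1 had a log2 difference of 0.53 (limma, adjusted p = 0.102), with all 6 tNT lines, at 8.84 to 9.30, above the NT lines at 8.49 and 8.58. Sall3 was above background on both NT arrays and no tNT array, and the NT lines were at least 1.26-fold higher (adjusted p = 0.117). It entered the tests through the NT arrays alone, a filter that favours lower tNT values. Sall4, a factor of the pluripotent state, differed by -0.04 (adjusted p = 0.901), Sox12 by -0.13 (0.736) and Otx1 by -0.15 (0.759). Pou3f2, Pou3f3, Pou3f4, Zic1, Zic4, Crx, Foxd1, Foxd2 and Foxd4 were not above background on enough arrays.

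The other genes of the formative and primed state were given by a list of 26, of which 23 have a probe and 17 were tested. In it 4 genes were lower in tNT lines and 0 higher after adjustment, beside 0.964% and 0.896% of all genes, and the median difference was -0.41. Like the other lists, it was chosen with earlier results of these data known, so the count is no test of the list. The 4 are Fgf8, Fgf5, Krt18 and Wnt8a, none of them a transcription factor. Line 2 again had the highest tNT value of Fgf8 (5.90), Krt18 (7.32) and Wnt8a (5.61), but each stayed below both NT lines, at 8.48 and 9.05, 8.74 and 9.03, and 6.32 and 6.47. Fgf5 was highest among tNT lines in line 1, at 6.01, and at 7.72 and 7.53 in the NT lines. Its difference was -2.52 (limma, adjusted p = 0.0176). Of these 4, Fgf8 and Wnt8a were above background on 1 tNT array and Fgf5 on 2, so the size of their differences rests on values near background. Fgf8 and Wnt8a entered the tests only with the help of the NT arrays, a filter that favours lower tNT values. Of the 13 core and naive factors tested, of 14 with a probe, 1 was higher in tNT lines and 0 lower. That gene was Klf5 (0.59, adjusted p = 0.0301), and Klf4, at 0.92 with an adjusted p of 0.161, did not pass. Tcf7l1, which represses naive genes, had a difference of -0.50 (adjusted p = 0.108).

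**Figure D5:**
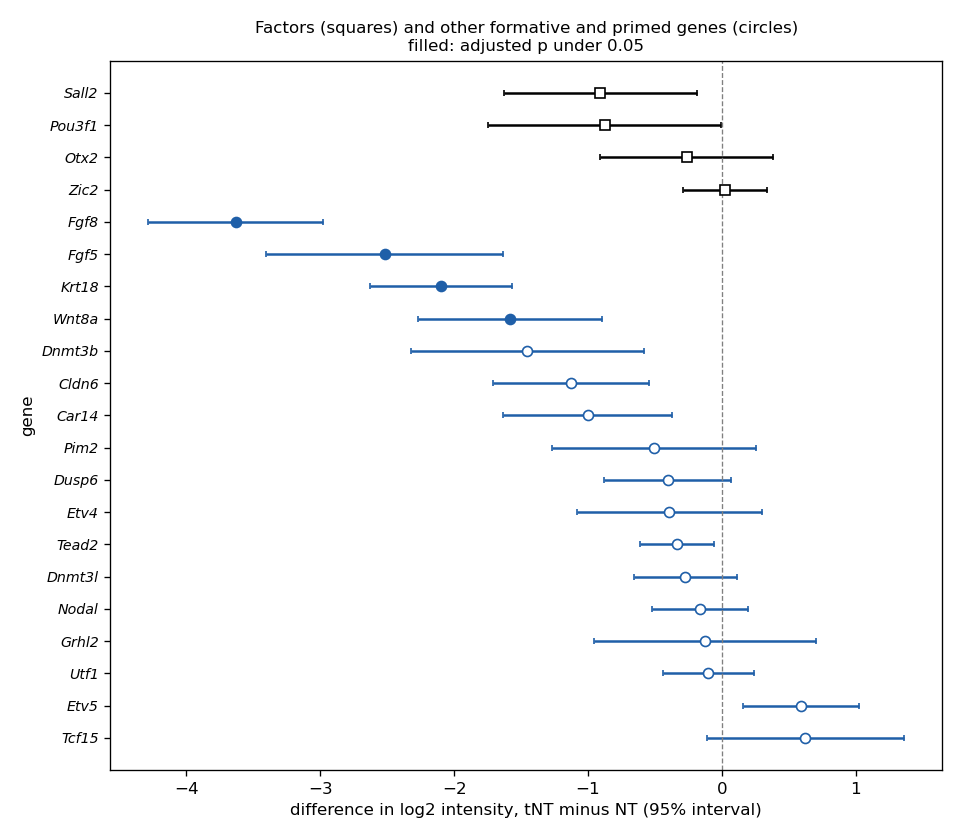
The plot of formative and primed genes gives tNT minus NT in log2 intensity with 95% intervals (horizontal axis) for the 4 factors tested, as squares, and the 17 listed genes, as circles, filled where the adjusted p is under 0.05. The 4 filled circles lie between -3.63 and -1.58, and all squares are open, between -0.91 and 0.02.

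Markers of lineages in which these factors also act gave few values. Of the neural crest list, 5 of 9 genes with a probe were tested, and Ets1 was lower in tNT lines (-1.30, limma, adjusted p = 0.0198). Of the mesoderm and endoderm list 4 of 11 were tested, and Lhx1, a homeodomain factor of the head organizer, passed. It was above background on no tNT array and at least 1.61-fold lower there (adjusted p = 0.00112). Like Sall3, it entered the tests through the NT arrays alone. Nes, an intermediate filament of neural progenitors, measured 5.96 to 7.46 in tNT lines, with line 2 the highest, and 7.92 and 7.36 in NT lines (difference -1.02, adjusted p = 0.139). Of the 3 neuroectoderm markers tested 0 passed, and of the 8 fibroblast markers 0.

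The number of genes called between the groups, 164 of 8816, depended on the lines. Without tNT lines 1 to 6 it was 92, 582, 93, 97, 80 and 85, and without NT lines 1 and 2 it was 6 and 7. For the 4 factors, leaving out tNT line 2 was the 1 such setting that brought any past the threshold.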

How the data were processed

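The authors deposited linear bead intensities for every probe, which their values show to be without background subtraction, each beside a p-value of detection, as its header names it. They also deposited processed values, taken here as log2, whose 8 columns share 1 distribution (median 3.49) and keep the rank order of the intensities, so their scale and background step are not fully known. BeadStudio 3.2, RMA and lumi appear in the submitters' processing notes, without saying which did what.

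The function neqc of limma 3.58.1 (R 4.3.3) corrected the background, with an offset of 16, and normalized by quantiles. Quantile normalization does not measure a difference in total RNA per cell. A gene was tested if above background on at least 2 of 8 arrays, by its brightest probe. Of the probes, 23978 have 1 gene in the platform annotation and 1719 none, and 23962 were matched to a RefSeq table of GRCm38.p6 for names, chromosome and gene order. Groups and passage slopes were fitted with lmFit and eBayes over all genes, 2-sided, with Benjamini-Hochberg adjustment at 0.05. No arrays were copies, since at most 1 probe had an equal intensity on a pair of arrays. The fits were also run on simulated data, in which noise was independent and had the spread of the tNT lines in both groups. Groups of unlike spread, or a line in which many genes shift together, were not simulated. A bound compares the bright group with, per array, the higher of the dim probe's value and the lowest detected value. Promoter windows are those of RefSeq (GRCm38.p6).

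The factors and lists were chosen with earlier results of these data known. Named are all factors, the 3 genes of most alike pattern for each, the paralogs above background, and up to 4 genes of smallest p per list. Dnmt3b and Tcf15 were named after their values were seen. Figures were drawn with matplotlib 3.10.9 (Python 3.11.15).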

Additional observations from a re-analysis of the deposited data

Results flagged for a closer look

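Among the values of the 6 tNT lines, 35 genes were examined for 1 line far from the others by the ratio of the largest end gap to the range (above 0.625), and 5 had one. Chance gives about 1 in 20 for independent sets, and these sets share the same arrays. None of the 7 factors was among them. Sall4 had a ratio of 0.651, with line 4 the highest at 12.32. The other 4 were line 2, which was lowest in Nanog (11.97, ratio 0.672) and Gsc (5.58, ratio 0.706) and highest in Gbx2 (10.65, ratio 0.665) and Thy1 (9.69, ratio 0.625). The ratios of Pou3f1 and Sall2, in which line 2 was also the highest tNT line, were 0.567 and 0.274.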

How the results depend on the processing

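Of 20 alternatives to the comparison of tNT with NT lines, Otx2 and Pou3f1 kept a negative difference in all, Sall2 in all 19 that gave it a value (it left with detection required on all 8 arrays), and Zic2 changed sign in 2. The number of genes called went from 164 to 1381 with array weights and 27 with tNT lines of passage 17 to 19, and with 1 line left out it lay between 6 and 582. The number of factors called went from 0 to 2 with array weights (Pou3f1 at -1.11, Sall2 at -1.03), beside 15.7% of all genes tested. It went to 1 with tNT lines of passage 25 to 29 (Sall2 at -1.19), beside 2.42% of all. With 1 tNT line left out it was between 0 and 2, the 2 being without tNT line 2, beside 6.60% of all. With any 1 line left out the differences lay between -1.10 and -0.73 for Pou3f1, -1.07 and -0.78 for Sall2, -0.42 and -0.11 for Otx2, and -0.0283 and 0.0700 for Zic2. For passage, array weights, whose estimation stopped before it converged for this fit, called 2 genes, neither a factor. With 1 line left out, slopes lay between -0.0379 and 0.0315 for Otx2 and between -0.00942 and 0.0219 for Zic2, which changed sign without tNT line 1 and without lines 4 or 5, respectively. Line numbers 1 and 2 occur in both groups, and nothing says that they pair the lines. Deviations of same-numbered lines correlated by 0.0411 and 0.000173. With the number as a block 157 genes were called, and the differences were -0.24 for Pou3f1, -0.31 for Sall2, -0.00173 for Otx2 and 0.13 for Zic2. In that fit tNT lines 3 to 6 each stood alone in a block. The differences therefore come from lines 1 and 2 of each group alone. Lines 1 and 2 are also the tNT lines highest in Pou3f1 and Sall2. Among the 4 factors tested, the groups of 1 did not overlap, beside 21.7% of all genes tested. With the 75th percentile in place of quantile normalization the count was also 1. It was 1 as well in the authors' values and with no background correction. Those keep each array's rank order and give all arrays 1 distribution, as the main values do, so that count was fixed in advance. This check was chosen after the data were seen. The causes were not tested. The probes of Zic5, Sox4 and Foxd3, near background, limit what these arrays can show of them.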

Other observations

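Dnmt3b, a DNA methyltransferase that is raised on leaving the naive state, measured 11.55, 12.30, 10.67, 10.59, 11.03 and 11.07 on the log2 scale in tNT lines 1 to 6. It measured 12.64 and 12.67 in NT lines 1 and 2. Line 2 was again the highest tNT line and line 1 the next, as in Sall2. The difference of -1.45 did not pass (limma, adjusted p = 0.0946). Tcf15, which marks cells about to leave the naive state, had a difference in the other direction, 0.62 (limma, adjusted p = 0.365).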
